A study of Mus musculus with 4 samples.

Results

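The genes described here are 48 genes of DNA replication and the S phase, taken by name from a list of licensing, fork and nucleotide synthesis genes. All 48 were found among the 53465 genes in the files, and all 48 were among the 18157 that passed the filter on low counts. PolyA RNA was sequenced from the ventricles of mice on postnatal day 1. The knockout-labelled group, with 2 libraries, had the genotype Ctnnb1floxP/floxP; alphaMHC-Cre+, and the control group, also with 2 libraries, was Ctnnb1floxP/floxP; alphaMHC-Cre-. β-catenin, the product of Ctnnb1, serves in cell junctions and in the Wnt pathway. Both groups carry the floxed alleles, so the deletion and the presence of the Cre transgene cannot be told apart. The alphaMHC promoter drives Cre in cardiomyocytes, so other cells of the ventricle should keep β-catenin. The labels do not say whether the libraries came from single or pooled animals, or whether replicates are separate animals, and p-values measure only the spread between these libraries. With 2 libraries against 2, a two-sided exact permutation test of 1 gene cannot go below p = 0.333, and the tests used here instead borrow the spread of all genes.

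In every cell cycle, the origin recognition complex together with Cdc6 and Cdt1 loads the ring of Mcm2 to Mcm7 onto DNA, which licenses an origin. Cdc45 and the GINS complex then turn the ring into an active helicase, and polymerases, the sliding clamp and its loader copy the strands from nucleotides that ribonucleotide reductase and its partners supply. Many of these genes are transcribed at the G1/S border through E2F factors, and cardiomyocytes of the newborn mouse still enter S phase, an ability that is largely lost soon after birth.

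The E2F letters in the promoters are shown for 4 members with matches and for Rrm2, the gene of the 48 with the largest fold change between the groups, which had none. Promoters of 300 bases, from RefSeq on GRCm38.p6, were found for 40 of the 48 genes, in 48 windows. Rfc2, Mcm4, Pole, Gins2, Gins4, Prim2, Gins1 and Ccne2 had no entry in the table. The E2F letters searched were TTTCCCGC, TTTCGCGC, TTTGCCGC and TTTGGCGC on both strands, and capitals mark the matches, which overlap each other in Mcm5 and at 1 place in Mcm6. Each stretch is printed 5′ to 3′ on the strand of its gene.
Mcm6, chr1:128359706-128359855, minus strand: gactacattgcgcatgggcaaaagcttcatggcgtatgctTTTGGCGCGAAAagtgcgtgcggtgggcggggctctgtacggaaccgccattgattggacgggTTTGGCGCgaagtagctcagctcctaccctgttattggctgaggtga
Mcm5, chr8:75109316-75109407, plus strand: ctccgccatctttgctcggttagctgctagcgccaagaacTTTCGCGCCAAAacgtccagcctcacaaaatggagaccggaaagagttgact
Cdc6, chr11:98907982-98908060, plus strand: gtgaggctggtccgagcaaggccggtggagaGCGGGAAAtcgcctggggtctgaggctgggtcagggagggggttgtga
Pola1, chrX:93632246-93632333, minus strand: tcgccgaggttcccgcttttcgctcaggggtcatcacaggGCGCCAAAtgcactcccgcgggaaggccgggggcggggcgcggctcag
Rrm2, chr12:24708141-24708240, plus strand: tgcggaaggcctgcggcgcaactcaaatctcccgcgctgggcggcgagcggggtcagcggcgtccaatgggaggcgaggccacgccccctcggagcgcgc

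An E2F match stood in 15 of the 48 member windows (31.2%), against 744 of all 32851 promoter windows (2.26%). The 15 genes were Orc1, Cdc6, Cdt1, Mcm3, Mcm5, Mcm6, Mcm7, Gins3, Pola1, Pold1, Pole2, Rfc3, Lig1, E2f2 and Uhrf1. Of the 40 genes with a window, 20 had p under 0.05 before adjustment in the comparison of groups below. An E2F match stood for 5 of these 20, against 10 of the other 20. CCAAT on either strand stood in 27 of the 48 member windows (56.2%), against 37.4% of all windows. The cell cycle homology letters TTTGAA or TTCGAA stood in 10 of the 48 (20.8%), against 19.2% of all windows. A match is only a run of letters, and a window without one says nothing about the factor.

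The libraries held 45651797 and 34027143 gene counts in the knockout-labelled group, against 43288936 and 44624578 in the controls. Levels are given below as CPM, the reads of a gene over the library size, with libraries scaled by the trimmed mean of M values (TMM). The T cell markers (12 listed) summed to 2.62 and 1.59 CPM in the knockout-labelled libraries, against 397 and 7.28 CPM in controls 1 and 2, with 11 of 12 below both controls in both knockout-labelled libraries. Of these markers 1 and 2 were at 0 in the knockout-labelled libraries, and none in the controls. Of 9 erythroid markers in the files, 6 lay below both controls, with sums of 768 and 664 CPM in the knockout-labelled libraries, against 1098 and 1128 CPM in the controls. The cardiomyocyte markers summed to 81612 and 89535 CPM in the knockout-labelled libraries, against 68049 and 61354 CPM in the controls, with 5 of 12 above both controls in both knockout-labelled libraries and 0 below. Over all genes tested, 29.7% lay below both controls in both knockout-labelled libraries and 26.5% lay above both. Both knockout-labelled libraries lay below both controls for 5 of 6 B cell markers, 5 of 8 macrophage markers (1 above), 4 of 7 mural markers and 3 of 8 endothelial markers, while 2 of 8 fibroblast and 1 of 6 epicardial markers lay above. Their sums stood at 1.69 and 2.23 CPM for B cells in the knockout-labelled libraries, against 4.25 and 3.49 CPM in the controls. For macrophages the sums were 124 and 161 CPM in the knockout-labelled libraries, against 203 and 158 CPM in the controls. For mural cells they were 837 and 630 CPM in the knockout-labelled libraries, against 865 and 877 CPM in the controls. Mitochondrial genes held 10.2% and 14.4% of gene counts in the knockout-labelled libraries, against 5.25% and 7.65% in the controls. Xist had 0.180 and 602 CPM in knockout-labelled libraries 1 and 2, against 0.257 and 0.327 CPM in the controls. Ctnnb1 itself had 527 and 460 CPM in the knockout-labelled libraries, against 409 and 434 CPM in the controls, a log2 fold change of 0.23 ± 0.20 (SE; edgeR adjusted p = 0.532). Its whole-gene count takes in undeleted exons and other cell types, so it does not check the labels. The part of these differences in the results below was not tested.

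Most replication genes were higher in the knockout-labelled libraries. For 38 of the 48, each knockout-labelled library exceeded both controls, where 26.5% of all genes tested did so, and 0 lay below both, where 29.7% of all genes did. The log2 fold change was positive for 45 of the 48 and negative for Pold1, Rfc2 and E2f2, with a median of 0.75 over the 48 and -0.02 over all genes. Scaling by library totals instead moved the 2 medians to 0.53 and -0.26, turned Mcm7, Gins4, Rfc1, Rpa2 and Fen1 negative, and left 12 of the 48 higher at p under 0.05 in place of the 25 described next. Reads of the 48 together made up 0.126% and 0.0904% of gene counts in the knockout-labelled libraries, against 0.0842% and 0.0805% in the controls. In bulk ventricle RNA, more cells in S phase, more of these RNAs per cell and a different mix of cell types cannot be told apart.

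In the quasi-likelihood test of edgeR, 0 of the 48 passed an adjusted p of 0.05 (Benjamini-Hochberg, over all genes), against 0.011% of all genes, and limma-voom also called 0. Before adjustment, 25 of the 48 had p under 0.05 and were higher, where 11.8% of all genes were higher at that level, and 0 were lower, where 11.2% were. DESeq2 called 16 of the 48 higher after adjustment, against 5.58% of the genes it gave an adjusted p, and all 16 were among those 25. The authors' deposited table, also from DESeq2, called the same 16. Leaving out control 1 or control 2 left 1 DESeq2 call in either case, leaving out knockout-labelled library 1 left 7, and leaving out knockout-labelled library 2 gave 18. The smallest edgeR adjusted p among the 48, 0.0925, was shared by 6 genes, given here by their annotated position on GRCm38: Prim1 (chr10:128015168-128030037, plus strand), Pcna (chr2:132249162-132253314, minus strand), Rfc4 (chr16:23113943-23127737, minus strand), Rrm1 (chr7:102441695-102469771, plus strand), Rrm2 (chr12:24708241-24714146, plus strand) and Tyms (chr5:30058202-30073617, minus strand). The fold changes of all 48 are drawn in the plot by role.

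**Figure D1:**
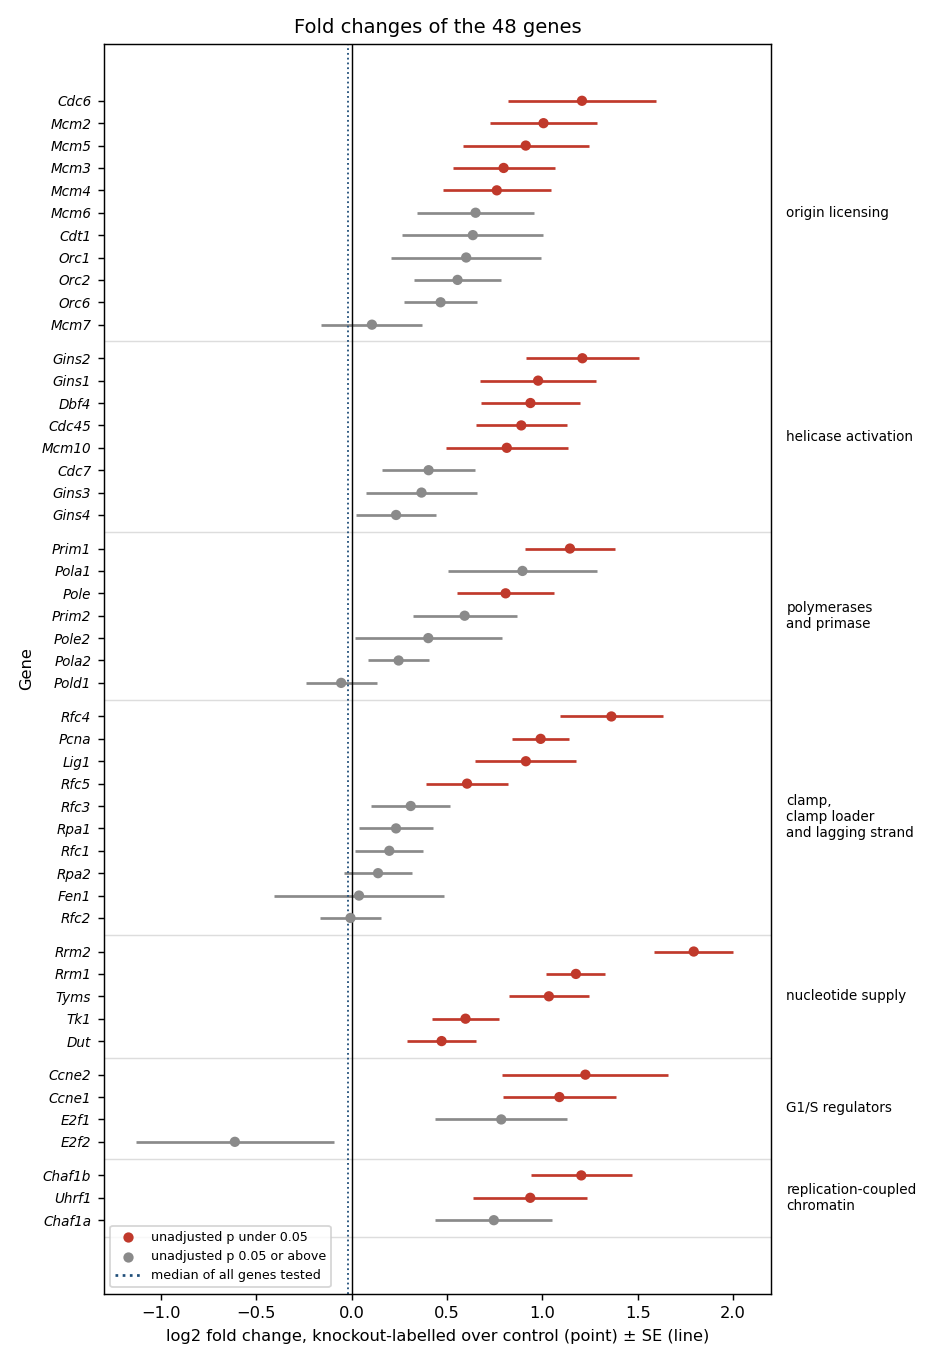
Log2 fold change of each gene, knockout-labelled over control (point) with its SE (line), grouped by role, on a horizontal log2 axis. Red marks an edgeR p under 0.05 before adjustment, grey the rest, and the dotted line the median of all genes tested. Of the 48 points, 45 lie right of 0, and Rrm2 lies farthest right at 1.79.

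Among the genes that supply nucleotides, each of the 5 had both knockout-labelled libraries above both controls. All 5 also had p under 0.05 before adjustment, DESeq2 called 3, and the median log2 fold change was 1.03. Rrm2, the S-phase subunit of ribonucleotide reductase, had 49.3 and 49.1 CPM in the knockout-labelled libraries, against 12.0 and 16.3 CPM in the controls. The knockout-labelled pair nearly coincided, far above either control, with a 3.47-fold difference (log2 1.79 ± 0.21; edgeR adjusted p = 0.0925, DESeq2 adjusted p = 1.76e-09). Rrm1, the large subunit of the same enzyme, had 102.5 and 94.6 CPM in the knockout-labelled libraries, against 42.2 and 45.0 CPM in the controls. Its groups were also far apart, 2.26-fold (log2 1.18 ± 0.15; edgeR adjusted p = 0.0925, DESeq2 adjusted p = 1.09e-06). Tyms, the thymidylate synthase, had 18.1 and 19.9 CPM in the knockout-labelled libraries, against 9.03 and 9.48 CPM in the controls, a log2 fold change of 1.03 ± 0.21. DESeq2 called Tyms as well (adjusted p = 0.00109), while edgeR gave an adjusted p of 0.0925. Dut, which removes dUTP, had the weakest difference of the 5, with 32.6 and 29.4 CPM in the knockout-labelled libraries, against 24.3 and 20.4 CPM in the controls (log2 0.47 ± 0.18; edgeR adjusted p = 0.197). Tk1, the thymidine salvage kinase, lay between, with a log2 fold change of 0.60. Levels of 8 genes are shown in the plot of CPM by library.

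**Figure D2:**
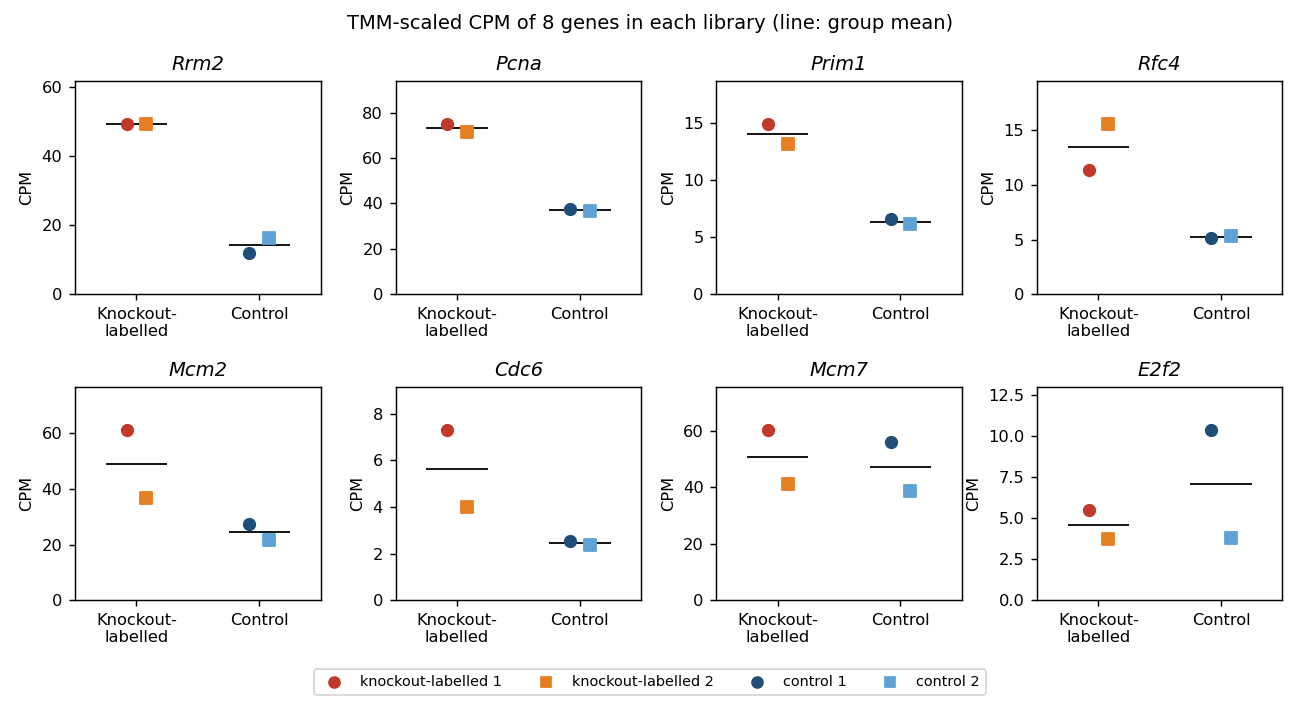
TMM-scaled CPM of 8 of the genes in each library, on a vertical axis from 0 in each panel, with knockout-labelled libraries on the left, controls on the right and a line at each group's mean. For Rrm2 the 2 knockout-labelled points sit at 49.3 and 49.1 CPM, above the controls at 12.0 and 16.3 CPM.

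Among the 10 genes of the clamp, the clamp loader and lagging-strand synthesis, the groups were apart for 6, 4 had p under 0.05 and DESeq2 called 3. The median log2 fold change was 0.27, or 0.034 with library totals, and members ran from -0.01 for Rfc2 to 1.36 for Rfc4. Pcna, the sliding clamp, had 75.2 and 71.7 CPM in the knockout-labelled libraries, against 37.4 and 36.5 CPM in the controls. Libraries of a group nearly matched, with a 1.99-fold difference between groups (log2 0.99 ± 0.15; edgeR adjusted p = 0.0925, DESeq2 adjusted p = 5.66e-05). The pseudogene Pcna-ps2 had 128 and 64 counts in the knockout-labelled libraries, against 24 and 28 in the controls, and reads that the gene and its copy share leave both counts uncertain. Rfc4, a small subunit of the loader that opens the clamp, had 11.4 and 15.6 CPM in the knockout-labelled libraries, against 5.13 and 5.38 CPM in the controls. The gap between groups again exceeded that within them (log2 1.36 ± 0.27; edgeR adjusted p = 0.0925, DESeq2 adjusted p = 0.000479).

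The subunits of the loader were not alike. Rfc2 had 42.9 and 42.0 CPM in the knockout-labelled libraries, against 45.5 and 39.8 CPM in the controls, so its knockout-labelled libraries lay within the controls' range (log2 -0.01 ± 0.16; edgeR adjusted p = 0.986). Rfc1, the large subunit, overlapped between groups with a log2 fold change of 0.20 ± 0.18, and Rfc3 and Rfc5 lay apart at 0.31 ± 0.21 and 0.60 ± 0.22. Lig1, the ligase that joins Okazaki fragments, had 34.0 and 21.2 CPM in the knockout-labelled libraries, against 15.2 and 14.1 CPM in the controls. Its knockout-labelled libraries differed from each other by more than its controls did, though both were higher (log2 0.91 ± 0.26; edgeR adjusted p = 0.133, DESeq2 adjusted p = 0.0295). The 2 listed subunits of replication protein A, which coats single-stranded DNA, had log2 fold changes of 0.23 for Rpa1 and 0.14 for Rpa2. Fen1, the flap endonuclease, was named after its values were seen, because only 34 and 13 counts in the knockout-labelled libraries and 26 and 31 in the controls were assigned to it. The annotation places Gm10143 on the opposite strand over 78.8% of the exon bases of Fen1, the strand setting of the counting was not stated in the sources used here, and the value of Fen1 is uncertain.

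Of the 7 polymerase and primase genes, 5 were apart between groups, 2 had p under 0.05 and DESeq2 called the same 2, with a median log2 fold change of 0.59. The median was 0.36 without knockout-labelled library 1, 0.35 with library totals and 0.35 with correction for GC content and gene length. Prim1, the catalytic subunit of the primase that starts each new strand, had 15.0 and 13.2 CPM in the knockout-labelled libraries, against 6.56 and 6.17 CPM in the controls. Both knockout-labelled libraries were far above both controls (log2 1.14 ± 0.23; edgeR adjusted p = 0.0925, DESeq2 adjusted p = 0.000783). Pole, the catalytic subunit of the leading-strand polymerase, had 16.7 and 12.2 CPM in the knockout-labelled libraries, against 8.34 and 8.20 CPM in the controls. The groups were apart (log2 0.81 ± 0.26; edgeR adjusted p = 0.148, DESeq2 adjusted p = 0.0482). Pold1, the catalytic subunit of the lagging-strand polymerase, had 21.7 and 19.7 CPM in the knockout-labelled libraries, against 22.9 and 20.0 CPM in the controls. Here the groups overlapped, with a log2 fold change of -0.06 ± 0.19 (edgeR adjusted p = 0.885).

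Pola1, the catalytic subunit of the polymerase that extends the primer, had 17.7 and 8.25 CPM in the knockout-labelled libraries, against 6.54 and 7.44 CPM in the controls. Only knockout-labelled library 1 was well above the controls, and the log2 fold change of 0.90 ± 0.39 (edgeR adjusted p = 0.24) was 0.29 without that library and 1.35 without knockout-labelled library 2. Pola1 lies on the X chromosome, and library 2 is the one with high Xist, but a link between these was not tested. Prim2, Pola2 and Pole2 had log2 fold changes of 0.59, 0.25 and 0.40, none with p under 0.05.

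All 8 genes of helicase activation had positive log2 fold changes (Gins4 not with library totals), 7 were apart between groups, 5 had p under 0.05 and DESeq2 called 3, with a median of 0.85. Gins2, a subunit of the GINS complex, had 10.4 and 7.41 CPM in the knockout-labelled libraries, against 3.90 and 3.78 CPM in the controls. Both were higher, by 2.31-fold on average (log2 1.21 ± 0.30; edgeR adjusted p = 0.108, DESeq2 adjusted p = 0.0061). The annotation places Gse1 on the opposite strand over 67.3% of the exon bases of Gins2, which leaves its count uncertain in the same way. Cdc45, the partner of GINS in the active helicase, had 11.9 CPM in each knockout-labelled library, against 6.78 and 6.11 CPM in the controls. The groups were apart by far more than their spread (log2 0.89 ± 0.24; edgeR adjusted p = 0.121, DESeq2 adjusted p = 0.0147). Dbf4, the activator of the kinase Cdc7, had 16.5 and 21.6 CPM in the knockout-labelled libraries, against 8.47 and 11.4 CPM in the controls. Again the groups did not overlap (log2 0.94 ± 0.26; edgeR adjusted p = 0.128, DESeq2 adjusted p = 0.0233), while Cdc7 itself had a log2 fold change of 0.40 ± 0.24. Gins4 was the only subunit of its complex whose groups overlapped, with 21.7 and 28.6 CPM in the knockout-labelled libraries, against 22.4 and 20.3 CPM in the controls. Only knockout-labelled library 2 lay above both controls (log2 0.23 ± 0.21; edgeR adjusted p = 0.543). Gins1 and Gins3 were at 0.98 ± 0.31 and 0.37 ± 0.29, and Mcm10, which helps start unwinding, at 0.81 on the log2 scale. Like Gins4, Gins3 did not reach p under 0.05.

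All 11 licensing genes also had positive log2 fold changes (Mcm7 not with library totals, nor without control 2 or without knockout-labelled library 1), 9 were apart between groups, 5 had p under 0.05 and DESeq2 called 2, with a median of 0.65. Mcm2, a subunit of the ring, had 61.3 and 36.9 CPM in the knockout-labelled libraries, against 27.4 and 21.5 CPM in the controls. Both knockout-labelled libraries were higher, library 1 by far more (log2 1.01 ± 0.28; edgeR adjusted p = 0.127, DESeq2 adjusted p = 0.0188). Cdc6, which helps load the ring, had 7.31 and 3.99 CPM in the knockout-labelled libraries, against 2.53 and 2.37 CPM in the controls. The order of libraries was the same (log2 1.21 ± 0.39; edgeR adjusted p = 0.151, DESeq2 adjusted p = 0.0496). Mcm3 had 48.4 and 28.9 CPM in the knockout-labelled libraries, against 23.1 and 21.5 CPM in the controls, a log2 fold change of 0.80 ± 0.27 (edgeR adjusted p = 0.16). Mcm7 behaved otherwise, with 60.2 and 41.1 CPM in the knockout-labelled libraries, against 55.8 and 38.5 CPM in the controls. Its groups interleaved, with a log2 fold change of 0.11 ± 0.26 (edgeR adjusted p = 0.842). The other 7 lay between 0.47 for Orc6 and 0.91 for Mcm5, and of them Mcm4 and Mcm5 had p under 0.05. Cdt1 was the other gene whose groups overlapped, with 15.6 and 8.66 CPM in the knockout-labelled libraries, against 9.33 and 6.29 CPM in the controls.

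Because the ring holds 1 copy of each of its 6 subunits, their RNA levels were also compared per kilobase of annotated exon. The highest of the 6 was 1.63 and 1.75 times the lowest in the knockout-labelled libraries, against 3.20 and 2.81 times in the controls. Mcm7 stood above the other five in both controls, at 12.6 and 8.69 CPM per kilobase, where the others ranged from 3.10 to 6.96. In the knockout-labelled libraries Mcm7 was at 13.6 and 9.28 CPM per kilobase, second in library 1 behind Mcm6 at 14.3 and first in library 2. Mcm2 was the lowest of the 6 in all 4 libraries, at 8.81 and 5.31 CPM per kilobase in the knockout-labelled libraries, against 3.94 and 3.10 in the controls. The same values are drawn in the plot of the helicase subunits. Annotated exon length takes in every isoform, so the ratios between subunits are approximate. That length was 6956 bases for Mcm2, against 3589 to 4666 for the others. The last place of Mcm2, and with it each ratio of highest to lowest, therefore rests on this length. In CPM without regard to length, Mcm5 was the lowest in every library.

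**Figure D3:**
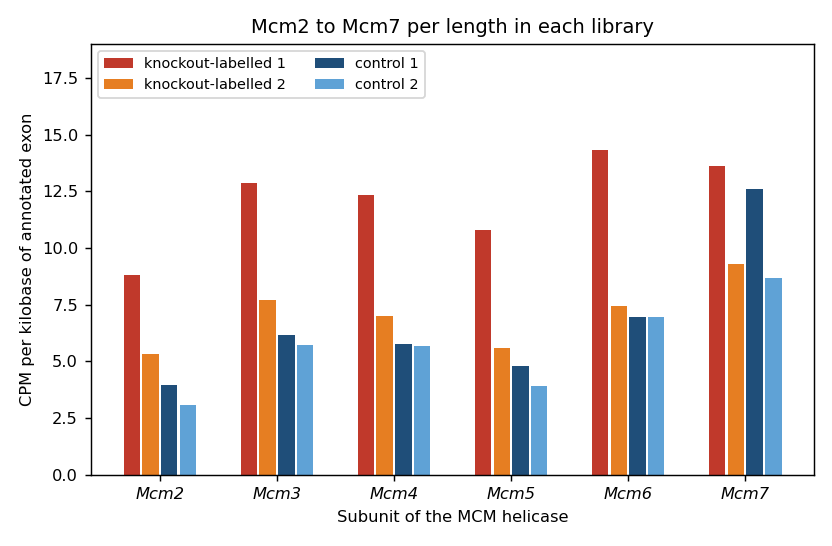
CPM per kilobase of annotated exon for Mcm2 to Mcm7 in each of the 4 libraries, on a linear axis from 0. In the controls Mcm7 stands apart from the other five, and in the knockout-labelled libraries the highest subunit is 1.63 and 1.75 times the lowest.

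Among the 4 G1/S regulators, 3 were apart between groups, 2 had p under 0.05 and DESeq2 called 1, with a median log2 fold change of 0.94, which was 0.59 without knockout-labelled library 1. Ccne1, a cyclin of the G1/S transition, had 8.39 and 6.39 CPM in the knockout-labelled libraries, against 3.58 and 3.37 CPM in the controls. The groups were clearly apart (log2 1.09 ± 0.30; edgeR adjusted p = 0.124, DESeq2 adjusted p = 0.0172). Ccne2, the second E-type cyclin, had 5.89 and 3.58 CPM in the knockout-labelled libraries, against 1.48 and 2.58 CPM in the controls. Both groups were spread out without overlapping (log2 1.23 ± 0.44; edgeR adjusted p = 0.173). E2f1, an activating E2F factor, had 16.4 and 8.79 CPM in the knockout-labelled libraries, against 7.63 and 7.03 CPM in the controls. Library 2 was close to the controls, and the log2 fold change of 0.78 ± 0.35 (edgeR adjusted p = 0.242) was 0.31 without knockout-labelled library 1. E2f2, another activating E2F factor, had 5.53 and 3.72 CPM in the knockout-labelled libraries, against 10.4 and 3.78 CPM in controls 1 and 2. The high value belonged to control 1, the library with 397 CPM of T cell markers, but a link between these was not tested. The log2 fold change of -0.61 ± 0.52 (edgeR adjusted p = 0.519) was 0.29 without control 1 and -1.16 without control 2. Without knockout-labelled library 1 it was -0.87, and without knockout-labelled library 2 it was -0.35.

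All 3 genes that couple chromatin to replication were apart between groups, 2 had p under 0.05 and DESeq2 called the same 2. Chaf1b, a subunit of the histone chaperone that works behind the fork, had 13.4 and 10.3 CPM in the knockout-labelled libraries, against 5.19 and 5.11 CPM in the controls. Both knockout-labelled libraries were well above the controls (log2 1.20 ± 0.26; edgeR adjusted p = 0.0953, DESeq2 adjusted p = 0.00175). Uhrf1, which helps copy DNA methylation to the new strand, had 31.6 and 19.3 CPM in the knockout-labelled libraries, against 15.2 and 11.4 CPM in the controls. It was higher in both, library 1 leading (log2 0.94 ± 0.30; edgeR adjusted p = 0.149, DESeq2 adjusted p = 0.0437). Chaf1a, the large subunit of the chaperone, had 13.3 and 8.49 CPM in the knockout-labelled libraries, against 6.97 and 6.05 CPM in the controls (log2 0.75 ± 0.31; edgeR adjusted p = 0.22). The annotation places Ubxn6 over 52.5% of its exon bases, so its count is uncertain as for Gins2. All 48 genes are drawn by library in the heat map.

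**Figure D4:**
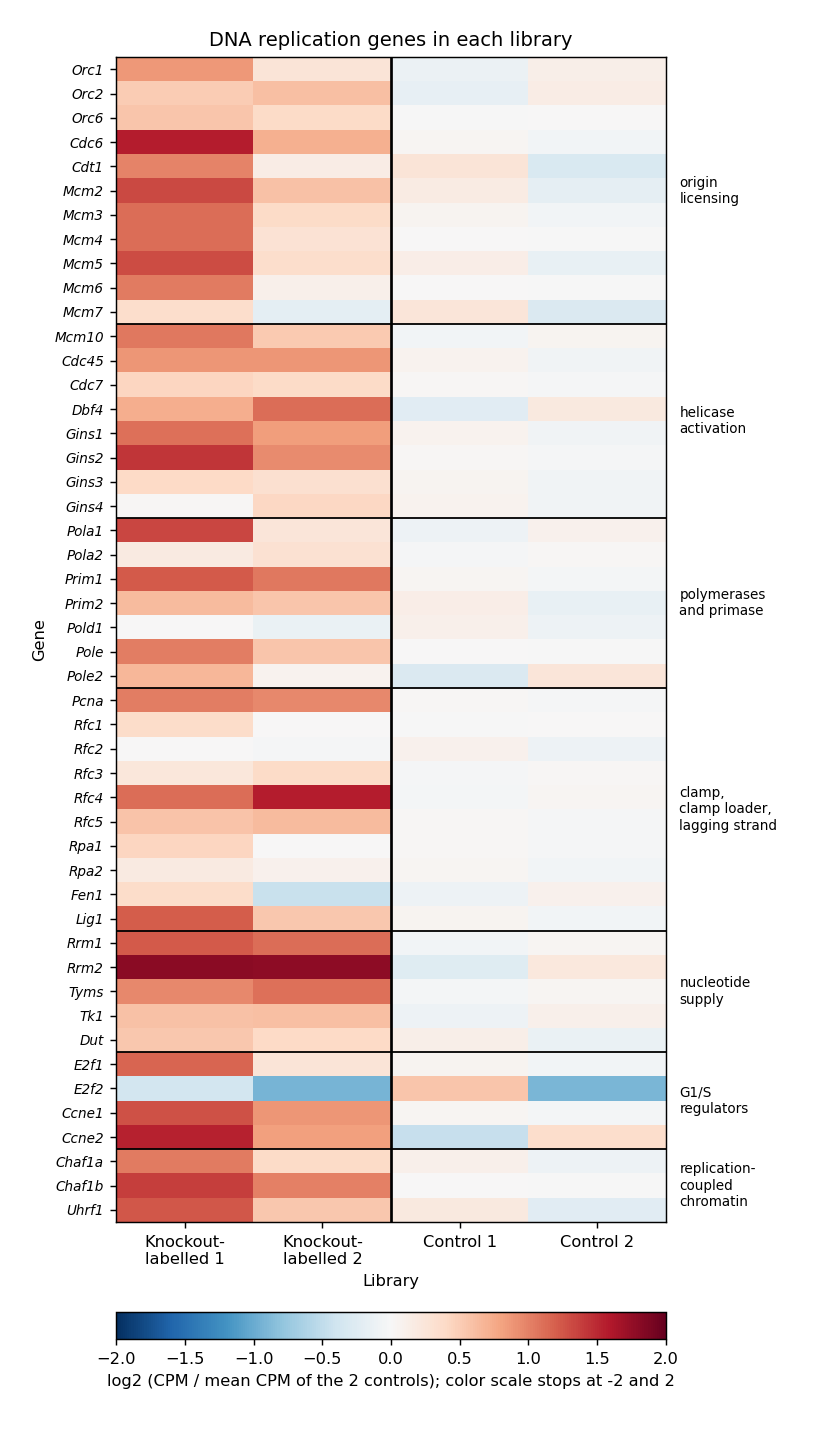
Heat map of log2 CPM of each gene (rows, grouped by role) over the mean of the 2 controls, in each library (columns, knockout-labelled libraries left of the line, controls right of it); the color scale stops at -2 and 2. Knockout-labelled library 1 is darker than library 2 in the licensing rows, and both are alike in the nucleotide supply rows.

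The 2 knockout-labelled libraries differed from each other by role. Library 1 exceeded library 2 for 38 of the 48 genes (79.2%), against 49.8% of all genes, with a median log2 ratio of 0.37. It did so for all of Mcm2 to Mcm7, with a median of 0.78, for 10 of 11 licensing genes, with a median of 0.74, and for all 4 G1/S regulators, with a median of 0.64. For the 5 nucleotide supply genes the median was 0.01, and for the 8 helicase activation genes it was 0.06. In all, 16 genes were over 1.5 times as high in library 1 as in library 2, among them Orc1, Cdc6, Cdt1, Mcm2 to Mcm6, Pola1, Lig1 and E2f1. Control 1 exceeded control 2 for 31 of the 48 (64.6%), against 50.4% of all genes, with a median log2 ratio of 0.05.

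Set over the mean of the controls, the median gene was at 0.98 in library 1 and 0.41 in library 2 on the log2 scale. The median log2 fold change of the 48 was therefore 0.46 without library 1 and 0.99 without library 2. For the licensing genes these values were 0.41 and 1.05, and for the nucleotide supply genes 1.15 and 0.97. Mcm6, chosen after its values were seen, shows the contrast, with 66.9 and 34.7 CPM in the knockout-labelled libraries, against 32.5 and 32.4 CPM in the controls. Its log2 fold change of 0.65 was 0.15 without library 1 and 1.05 without library 2.

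The mitosis genes, a separate list of 25, ran the other way between the same libraries. Library 1 exceeded library 2 for 0 of the 25, with a median log2 ratio of -0.66 and a range of -1.42 to -0.13, and control 1 exceeded control 2 for 0 of the 25 as well, with a median of -0.61. Set over the mean of the controls, their median was 0.90 in library 1 and 1.47 in library 2. Between the groups, 21 of the 25 were higher and 0 lower at p under 0.05, where 11.8% and 11.2% of all genes were. DESeq2 called 18 higher, against 5.58% of the genes it gave an adjusted p, and the median log2 fold change was 1.20. Mki67, a general marker of cycling cells, had 153 and 168 CPM in the knockout-labelled libraries, against 60.4 and 88.7 CPM in the controls. Mad2l1, of the spindle checkpoint, had 21.3 and 28.6 CPM in the knockout-labelled libraries, against 7.31 and 11.4 CPM in the controls. Ccnb2, a mitotic cyclin, had 28.5 and 45.3 CPM in the knockout-labelled libraries, against 11.3 and 16.1 CPM in the controls. All 3 were higher in the knockout-labelled libraries without overlap, with an edgeR adjusted p of 0.0925 for each, and all 3 were higher in the second library of either group. With 1 library on each side, these differences between libraries have no replicate check.

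**Figure D5:**
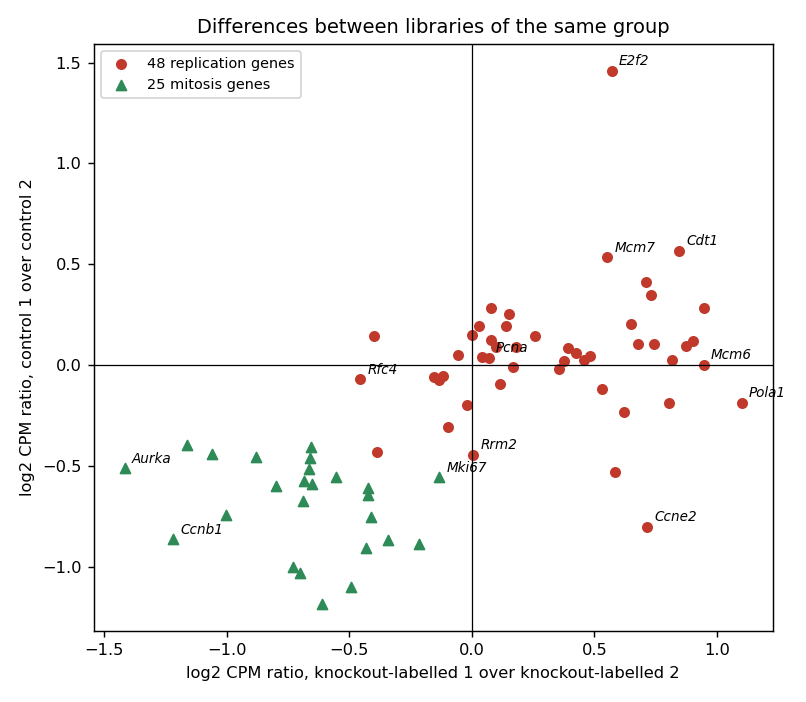
Each point is a gene, with the log2 CPM ratio of knockout-labelled library 1 over 2 on the horizontal axis and of control 1 over control 2 on the vertical axis, for the 48 replication genes and the 25 mitosis genes. All 25 mitosis points lie left of 0 and below 0, and 38 of the 48 replication points lie right of 0.

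A further 60 genes of replication, its checkpoints and its regulation differed less between the groups. Of the 60, 19 were higher and 1 was lower at p under 0.05, where 11.8% and 11.2% of all genes were. DESeq2 called 10 higher, against 5.58% of the genes it gave an adjusted p. It called 0 lower, against 716 of the 16906 tested genes with an adjusted p. In both knockout-labelled libraries, 38 of the 60 lay above both controls and 7 below both, where 26.5% and 29.7% of all genes did. The median log2 fold change of the 60 was 0.42, or 0.18 with library totals. Tipin, of the fork protection complex, had 24.7 and 21.9 CPM in the knockout-labelled libraries, against 12.0 and 12.3 CPM in the controls. Top2a, the topoisomerase that untangles replicated chromosomes, had 93.2 and 117.5 CPM in the knockout-labelled libraries, against 36.9 and 55.4 CPM in the controls. Groups were apart for both genes, with log2 fold changes of 0.94 for Tipin and 1.19 for Top2a and an edgeR adjusted p of 0.0925 for each. Rnaseh2a, a subunit of the enzyme that removes ribonucleotides from DNA, had 28.6 and 38.3 CPM in the knockout-labelled libraries, against 35.1 and 30.3 CPM in the controls. Its groups overlapped, at a log2 fold change of 0.03 ± 0.20. The gene that was lower was Rbl2, which encodes p130, a repressor of E2F targets in resting cells (25.6 and 24.5 CPM in the knockout-labelled libraries, against 42.8 and 36.1 CPM in the controls; log2 -0.66 ± 0.17; edgeR adjusted p = 0.118), chosen after its value was seen.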

How the data were processed

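Each library took 20 ng of polyA RNA, enriched from 1.5 µg of total RNA, into a stranded kit, per the labels' protocols. Per the submitters' processing notes, the tools were bcl2fastq 2.16.0.10, FastQC 0.11.5, STAR 2.5.3a, HTSeq 0.6.1 and DESeq2 1.18, with GRCm38 as the build. Neither the annotation release nor the strand setting of the counting was given in the sources used here. The deposited counts are whole reads per gene without scaling. The authors' deposited table also gives log2 fold changes and p-values (raw and adjusted), from which only the overlap of calls was taken, and 4 columns of normalized values per sample, which were not used. The 5 HTSeq summary categories were left out, among them reads assigned to several places, at 23.9% and 29.7% of all counted reads in the knockout-labelled libraries, against 19.4% and 21.0% in the controls.

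Symbols came from GENCODE vM21 on GRCm38, which matched 53274 of the 53465 identifiers. In R 4.3.3 with edgeR 4.0.16, filterByExpr with its defaults left 18157 genes, TMM scaling gave factors of 0.972 and 0.869 in the knockout-labelled libraries, against 1.08 and 1.10 in the controls, and the quasi-likelihood test, with no covariates, compared the groups at a Benjamini-Hochberg adjusted p of 0.05. In all, 616 genes share the adjusted p of 0.0925. DESeq2 1.42.0 and limma 3.58.1 (voom) were alternatives. A log2 fold change is given ± SE. The scripts were tested on simulated data of 18157 genes, with 100 changed 2-fold and 100 changed 4-fold. At an adjusted p of 0.05, edgeR recovered 17 and 82 of these, and 9 of its 108 calls were false. DESeq2 recovered 42 and 87, with 32 of 161 calls false, and limma-voom 10 and 79, with 7 of 96 false. Counts behind the 48 genes ran from 13 to 4544 per library.

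The 48 genes, their 7 role groups and the other lists were chosen with earlier results of these data known. In each role group the 3 genes with the smallest p and the 1 with the largest are given in full, or all where the group has 4 or fewer, along with Ctnnb1, the other replication genes by the same rule (1 is not reported here) and the 3 mitosis genes with the smallest p. Genes described beyond this rule were chosen after their values were seen. Promoter windows were searched as plain letters in RefSeq sequence of GRCm38.p6.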

Additional observations from a re-analysis of the deposited data

How the results depend on the processing

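The count of replication genes past the adjusted threshold in edgeR was 0, and it was 16 with DESeq2 and 4 without the filter on low counts. The 4 were Pcna, Rfc4, Rrm1 and Rrm2. It stayed at 0 without each library in turn, with a range of 0 to 0. At p under 0.05, 25 were higher, against 12 with library totals in place of TMM, where the median of all genes shifts to -0.26, and from 10 to 33 without each library. The other replication genes gave 19, against 8 with library totals and 6 to 24 without each library. The median log2 fold change of 0.75 ran from 0.46 to 0.99 without each library, and was 0.53 with library totals. Genes whose groups do not overlap numbered 38, against 27 with library totals and 40 with DESeq2 size factors. Without each library they numbered 39 to 44, but groups with fewer libraries overlap less readily, so this range is no check of the 38. Calls by DESeq2 numbered 1 to 18 without each library, an alternative chosen after seeing the data. Direction turned for Ctnnb1 with library totals (-0.0086; 0.18 to 0.33 without each library). With library totals it also turned for Mcm7 (-0.12), Gins4 (-0.018), Rfc1 (-0.034), Rpa2 (-0.10) and Fen1 (-0.18). Without control 1 it turned for Pold1 (0.045), Rfc2 (0.093), Fen1 (-0.054) and E2f2 (0.29), without control 2 for Mcm7 (-0.13), without knockout-labelled library 1 for Mcm7 (-0.14), Rfc2 (0.032) and Fen1 (-0.38), and without knockout-labelled library 2 for Pold1 (0.021) and Rfc2 (0.018). The highest values of Mcm7 and Fen1 without a library were 0.40 and 0.37, and the lowest of Rfc2 and E2f2 were -0.092 and -1.16. Correction for GC content and gene length turned Pold1 (0.29) and Rfc2 (0.15), DESeq2 turned Rfc2 (0.016), its size factors did so (0.023), and so did protein-coding genes alone (0.0083). The cause was not tested. Library numbers are only numbers, since nothing in the labels pairs the libraries, and with 2 pairs the deviations of same-numbered libraries correlated at -0.116 across 18157 genes. With the replicate block, 0 members passed and 22 had p under 0.05, the median was 0.71, the other replication genes gave 16, Ctnnb1 was at 0.22 and Fen1 turned (-0.0084). With the block and that correction 0 passed and 26 had p under 0.05, the median was 0.66, and Pold1 (0.29) and Rfc2 (0.15) turned. With crossed numbers, chosen after seeing the data, 6 passed and 26 had p under 0.05, and Fen1 turned (-0.0066). Fen1 had the fewest counts (13 to 34 per library), and its log2 fold change has an SE of 0.45.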
